A study of Mus musculus with 2 samples.

Results

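The genes described here are the potassium channel subunit genes of the mouse, taken as every gene whose symbol starts with Kcn and that has at least 1 transcript annotated as protein-coding. The rule gave 94 genes among the 55536 annotated genes of the gene table, and all 94 had a value in both libraries. A further 5 Kcn symbols had no protein-coding transcript and were not members. The values come from the heart of aged male B6CASTF1/J mice, an F1 cross labelled B6Cast F1, at 18 to 20 months. There was 1 group of 2 libraries of total RNA, biological replicates 1 and 2, each a stranded preparation reduced in ribosomal RNA, with 300 ng of input and added ERCC spike-ins. The 2 libraries carry different sample identifiers and 1 shared donor identifier, so the spread between them may be partly technical. With no second condition, the members were described by their levels and by how far the 2 libraries differed. The whole organ was sampled, so a low value cannot tell few expressing cells from little RNA per cell. The gene tables held 38858481 and 37281459 counts on annotated genes in replicates 1 and 2. All 5 cardiomyocyte markers examined (Actc1, Myh6, Tnnt2, Tnni3 and Ryr2) were at 1 TPM or more in both libraries. Values are TPM, a length-scaled abundance. A value with ± is the mean and SD over both libraries (n = 2).

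Potassium channels let potassium leave the cell and so end the cardiac action potential and hold the resting voltage. Voltage-gated pores open on depolarization and carry the transient outward and delayed rectifier currents. Inward rectifiers pass current near the resting voltage and include the channels closed by ATP and those opened by acetylcholine. Tandem-pore channels carry a leak current, and calcium-activated channels open when calcium rises inside the cell. Electrically silent subunits form no channel alone and modify voltage-gated pores, while accessory subunits form no pore and alter the gating or the trafficking of the pores.

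Pore-forming and accessory members differ in a short signature of the coding sequence, which is shown here. The roles used below were set by the family named in the symbol and not by this signature. Pores carry a selectivity filter, a run of serine or threonine, any residue, glycine, an aromatic residue or leucine, and glycine. The longest annotated coding sequence of each member was searched for codons of that run. It was found in all 77 members with a pore role, electrically silent ones included, and in 0 of 17 accessory members. It was also found in 5.09% of 21462 other nuclear protein-coding genes, so a match alone does not mark a channel. All 14 tandem-pore members held it at 2 or more places, as did 2 voltage-gated members and 103 of the 21462 other genes. The coding strand is given 5′ to 3′ from the GENCODE M21 transcripts (mm10), with the glycine, aromatic and glycine codons in capitals.
Kcnk3, first pore (coding bases 271 to 297, across a splice junction): atcaccaccatcGGCTATGGTcatgcg
Kcnk3, second pore (chr5:30622196-30622222, plus strand): ctcaccaccatcGGCTTCGGCgactat
Kcnj11 (chr7:46099490-46099516, minus strand): caggtgaccattGGTTTCGGCgggcgc
Kcnj3 (chr2:55437621-55437647, plus strand): gaggccaccatcGGCTATGGCtaccgc
Kcnj2 (chr11:111072201-111072227, plus strand): cagacaaccattGGCTATGGTttcagg
Kcnh2 (chr5:24325549-24325575, minus strand): ctcaccagcgtgGGCTTTGGCaatgtc
Kcna5 (chr6:126533739-126533765, minus strand): atgaccactgtaGGCTACGGGgacatg
The middle codon differed among these pores. It was TAT or TAC, for tyrosine, in Kcnj3, Kcnj2, Kcna5 and the first pore of Kcnk3. It was TTT or TTC, for phenylalanine, in Kcnh2, Kcnj11 and the second pore of Kcnk3. Kcnh2 matched the run at a further place upstream, which is not shown.

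Few of the potassium channel genes were expressed at an appreciable level in this heart. In all, 21 of 94 members, or 22.3%, reached 1 TPM in both libraries, where 49.4% of the 22015 nuclear protein-coding genes did. At 10 TPM the counts were 9 of 94 members, or 9.57%, against 21.1% of those genes. The same measure at 1 TPM gave 5 of 14 voltage-gated sodium channel genes and 9 of 26 genes named Cacn, for calcium channel subunits. The members together held 0.109% ± 0.000624 of nuclear protein-coding TPM, and their sums were 450.6 and 392.6 TPM in replicates 1 and 2. The RNA was concentrated in few genes. The first 4 members, Kcnk3, Kcnip2, Kcng2 and Kcnj11, held 61.05% ± 1.19 of the summed TPM, and the first 10 held 84.01% ± 0.0893.

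**Figure D1:**
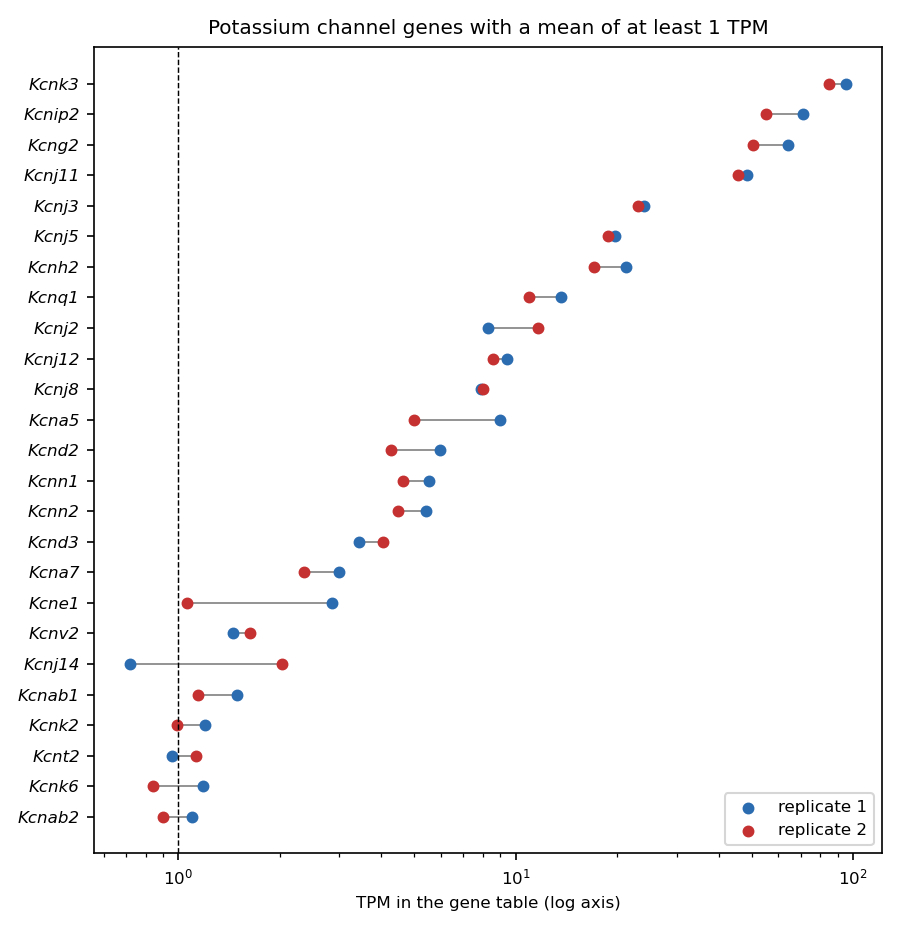
TPM of members with a mean of at least 1 TPM (log axis, 1 member not shown), replicate 1 in blue and replicate 2 in red, with the dashed line at 1 TPM. Levels run from 95.4 and 85.03 TPM for Kcnk3 down to 1.1 and 0.9 for Kcnab2, and the libraries lie farthest apart for Kcnj14 and Kcne1.

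Inward rectifiers held the largest share of the members' TPM among the 6 roles, at 28.4% ± 2.59, and tandem-pore members followed with 22.2% ± 0.466. Accessory members held 16.4% ± 1.45, voltage-gated pores 15.996% ± 0.769, electrically silent members 14.02% ± 0.868 and calcium- or sodium-activated pores 2.97% ± 0.0326. The shares of accessory and voltage-gated members differed by less than their SDs. The sources of these shares were unlike. A single gene made up 96.6% of the tandem-pore sum (Kcnk3), 96.6% of the silent sum (Kcng2) and 90.6% of the accessory sum (Kcnip2). Kcnj11, the leading inward rectifier, made up 39.5% of its role, and Kcnh2 made up 28.3% of the voltage-gated sum.

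**Figure D2:**
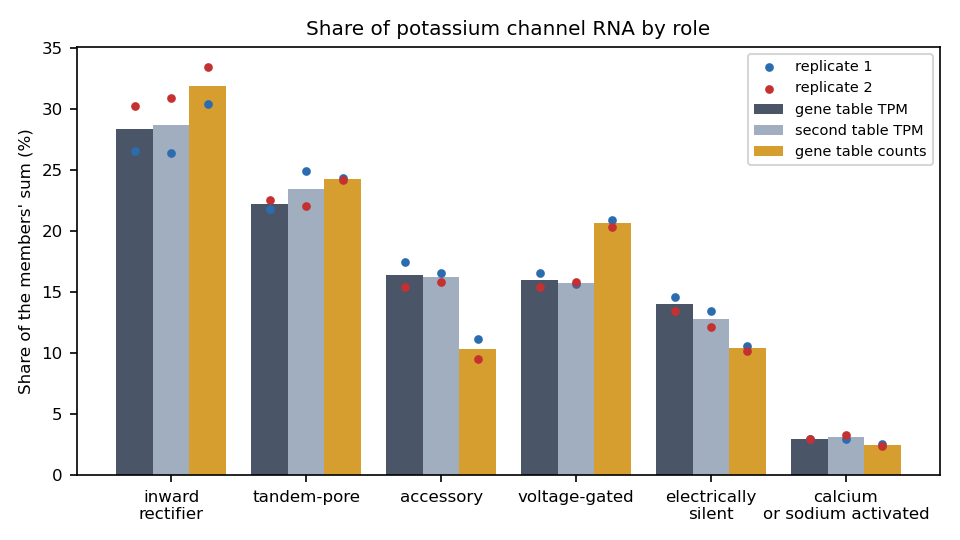
Share of the summed values of all 94 members held by each role, in percent, from gene table TPM, second table TPM and gene table counts. Bars are means of the 2 libraries and blue and red points are replicates 1 and 2. Inward rectifiers hold the tallest bars by each quantity, and voltage-gated members take 20.6% of counts beside 15.996% of TPM.

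Among the inward rectifiers, 6 of 15 reached 1 TPM in both libraries. Kcnj11, the pore of the channel that ATP closes, was at 48.5 and 45.6 TPM in replicates 1 and 2 (ENSMUSG00000096146.2, chr7:46093953-46100764). Its relative Kcnj8, the pore of the vascular form, was at 7.88 and 8.02, and Kcnj11 made up 85.5% ± 0.705 of the pair. Pericyte markers, the cells best known for Kcnj8, were at 1 TPM or more in 5 of 5, with sums of 153 and 137 TPM, and their part in the Kcnj8 level was not tested. Kcnj3 and Kcnj5 form the channel opened by acetylcholine. Kcnj3 stood at 23.96 and 23.1 TPM and Kcnj5 at 19.7 and 18.8, so each gene's libraries lay close together. Kcnj5 made up 45.01% ± 0.223 of the sum of these 2 genes, and 41.4% ± 0.300 by the second table. Kcnj2 and Kcnj12 encode the classical inward rectifier that sets the resting voltage of ventricular muscle. Kcnj2 was at 8.25 and 11.7 TPM and Kcnj12 at 9.44 and 8.59. The Kcnj2 share was 46.6% in replicate 1 and 57.6% in replicate 2, so the order of these 2 genes turned between the libraries. Kcnj14, of the same group, was at 0.72 and 2.03 TPM. Kcnj4 and Kcnj15 had means of 0.54 and 0.385 TPM, and the other 6 members of the family were under 0.1.

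Of the tandem-pore members, 1 of 14 reached 1 TPM in both libraries. Kcnk3, an acid-sensitive leak channel, had the highest level of all 94 members, at 95.4 and 85.03 TPM in replicates 1 and 2, and ranked 617 among nuclear protein-coding genes (ENSMUSG00000049265.7, chr5:30588170-30625271). Its closest relative Kcnk9 had 0 counts in both libraries. Kcnk2, a leak channel opened by stretch, was at 1.2 and 0.99 TPM and Kcnk6 at 1.18 and 0.84, so both lay on the threshold. Kcnk1 was at 0.18 TPM in replicate 1, from 10 counts, and at 1.14 in replicate 2, from 70 counts.

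Voltage-gated pores were spread over several families, and 7 of 30 reached 1 TPM in both libraries. Kcnh2, the pore of the rapid delayed rectifier, led them at 21.2 and 17.04 TPM. Kcnq1, the pore of the slow delayed rectifier, was at 13.6 and 10.96, and made up 39.1% ± 0.0397 of the sum of these 2 genes. The second table put that share at 42.2% ± 2.26, so the small SD does not cover the difference between the tables. Kcna5, which carries an ultra-rapid delayed rectifier current, was at 9.01 and 4.98 TPM. The transient outward pores Kcnd2 and Kcnd3 were at 5.95 and 4.27, and at 3.42 and 4.05. The Kcnd2 share of that pair was 63.5% in replicate 1 and 51.3% in replicate 2. Kcna7 was at 2.99 and 2.36 TPM. Kcna4, the pore of the slow transient current, was at 0.32 and 0.63 TPM from 47 and 26 counts, so its TPM and counts were ordered oppositely between the libraries. The second table gave 0.357 and 0.180 TPM, in the order of the counts. Kcna1 had a mean of 0.875 TPM. None of the 4 Kcnc pores, which serve fast-firing neurons, reached 1 TPM in both libraries. Among 8 neuron and Schwann cell markers, 1 did.

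Kcng2, an electrically silent subunit, had rank 3 among all 94 members. It was at 64.1 and 50.5 TPM in replicates 1 and 2. The other silent member at 1 TPM in both libraries was Kcnv2, at 1.45 and 1.63 TPM. The remaining 8 of the 10 silent members were below 1 TPM in each library, and 3 of the 10 had 0 counts in both.

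Among accessory members, 3 of 17 reached 1 TPM in both libraries. Kcnip2, the calcium-binding subunit of the Kcnd pores, was at 70.8 and 55.2 TPM (ENSMUSG00000025221.15, chr19:45791839-45816061). It exceeded the sum of Kcnd2 and Kcnd3 by 7.56-fold in replicate 1 and 6.64-fold in replicate 2, and by 7.31-fold and 6.83-fold in the second table. These are ratios of RNA and not of subunits. Kcne1, the single-span subunit that slows Kcnq1, was at 2.86 TPM in replicate 1 (119 counts, exact Poisson 95% interval 2.37 to 3.42 TPM) and 1.06 in replicate 2 (41 counts, 0.761 to 1.44). The second table gave 2.63 and 0.554 TPM, so there Kcne1 was under 1 TPM in replicate 2. Kcne2, a partner of Kcnh2 and Kcnq1, had 0 counts in both libraries, which allows up to 0.0622 and 0.0626 TPM. Kcne4 and Kcne3 had means of 0.605 and 0.29 TPM. Kcnab1 and Kcnab2, cytoplasmic subunits of the Kcna pores, were at 1.49 and 1.14, and at 1.1 and 0.9 TPM. The second table's means were 1.51-fold higher for Kcnab1 and 2.01-fold higher for Kcnab2, which it put at 2.75 and 1.26 TPM. A gap of over 1.5-fold between the tables was found for 2 of 26 members and 14.8% of all genes.

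Partner genes outside the Kcn symbols were taken from a list of 14, of which 7 reached 1 TPM in both libraries. Abcc9, the sulfonylurea receptor of ventricular and vascular ATP-closed channels, was at 95.02 and 80.4 TPM. That was 1.68 and 1.5001 times the sum of the pores Kcnj11 and Kcnj8. The receptor Abcc8, paired with Kcnj11 in pancreas and atrium, was at 16.4 and 14.7 TPM, and Abcc9 made up 84.9% ± 0.509 of the receptor pair. The scaffold Dlg1 was at 21.2 and 21.7 TPM and the kinase anchor Akap9, which binds Kcnq1, at 17.4 and 13.9. Dpp6, a Kcnd subunit in brain, was at 0.1 and 0.35 TPM, and Dpp10 had 0 counts. Lrrc52, a gamma subunit of large-conductance channels, was at 1.06 and 1 TPM, Lrrc55 at 0.49 and 0.63, Lrrc38 at 0.03 and 0.01, and Lrrc26 had 0 counts. Of the pacemaker channels, Hcn2 was at 5.95 and 4.98 TPM and Hcn4 at 2.74 and 2.49. Hcn3 was at 0.12 and 0.01.

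Of the calcium- and sodium-activated pores, 2 of 8 (25%) reached 1 TPM in both libraries, near the 22.3% of all 94 members. The small-conductance pores Kcnn1 and Kcnn2 were at 5.53 and 4.63, and at 5.42 and 4.47 TPM, and did not differ beyond their spread. Kcnn3 was at 0.62 and 0.64. The large-conductance pore Kcnma1 and its smooth muscle subunit Kcnmb1 had means of 0.325 and 0.28 TPM, from 34 and 30 counts and from 28 and 43. Smooth muscle markers were at 1 TPM or more in 5 of 5, with sums of 79.1 and 74.4 TPM. Kcnt2, a sodium-activated pore, was at 0.96 and 1.13.

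Members near the threshold of 1 TPM were few. Just inside it by mean were Kcnab2 at 1, Kcnk6 at 1.01 and Kcnt2 at 1.045, and among those just outside it was Kcna1 at 0.875. In the 73 members that did not reach 1 TPM in both libraries, 15 had 0 counts in both and 6 in 1 of them. For the 15, a count of 0 allows between 0.00797 and 0.147 TPM depending on the gene's length. Below 0.1 TPM by mean were 44 of the 94 members.

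Transcript models were compared for the 15 members of highest mean TPM with 2 or more annotated transcripts. In the first transcript table, 14 of them had a transcript with more than 50% of the gene's TPM, and 5 had one with more than 90%. By the mean of both libraries, the same transcript led in the second table for 12 of 15. The same counts were not taken over all genes, so they do not set these members apart. Kcnq1-201 made up 96.6% ± 3.84 of Kcnq1, and 88.01% ± 6.801 by the second table. Kcnh2-201, which codes for the longer of the main Kcnh2 proteins with 3489 coding bases, held 54.9% ± 0.850 and, by the second table, 60.9% ± 4.74. The shorter Kcnh2-202, with 2463 coding bases and chosen after its value was seen, held 33.9% ± 5.38 of the first table.

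**Figure D3:**
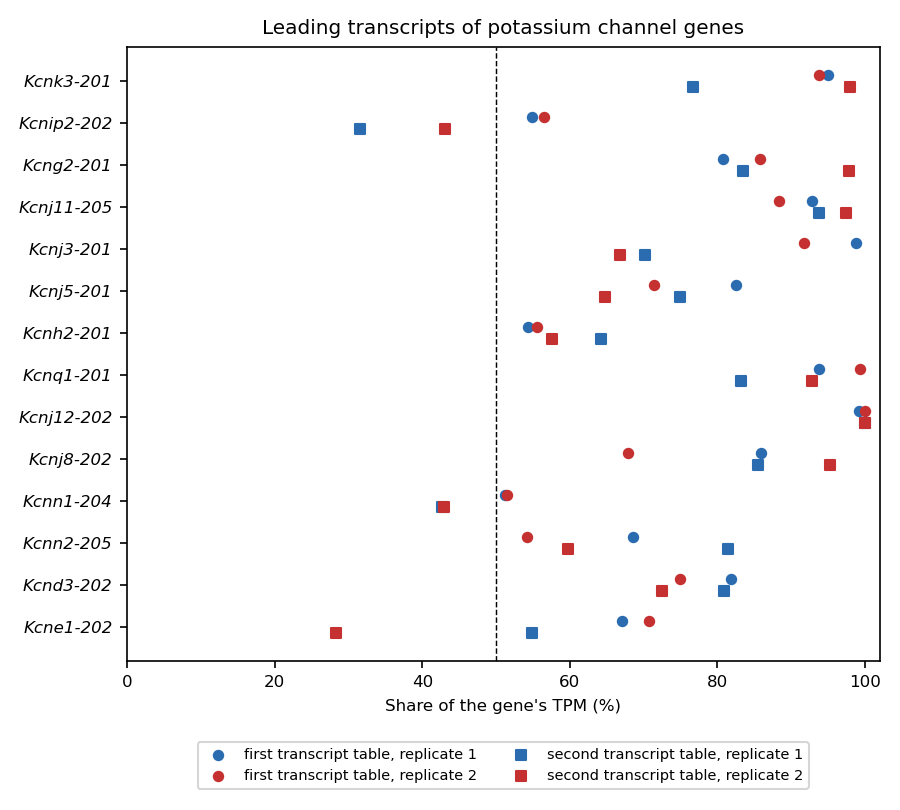
Share of each gene's TPM held by the transcript that leads the first transcript table, in percent, for the 15 genes but 1 that is not shown. Circles are the first table, squares the second, blue replicate 1 and red replicate 2, with the dashed line at 50%. The tables lie apart for Kcnip2-202, at 54.9% and 56.5% against 31.6% and 43.1%. They also lie apart for Kcnj3-201, at 98.8% and 91.8% against 70.1% and 66.8%, and for Kcne1-202. Among others, they do so for Kcnk3-201 in replicate 1, at 95.1% against 76.7%. For Kcnj8-202 in replicate 2 the shares are 67.8% against 95.2%.

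Kcnip2 and Kcne1 were among the 3 genes whose leader by mean share differed between the tables, and for both the leader in the second table also differed between the libraries. Kcnip2-202 led the first table with 55.7% ± 1.14, where Kcnip2-209 held 28.9% ± 3.80. In the second table Kcnip2-209 led in replicate 1, with 53.9% against 31.6%, and Kcnip2-202 led in replicate 2, with 43.1% against 35.8%. Kcne1-202 led both libraries of the first table, with 67.02% and 70.8%. In the second it led in replicate 1, with 54.9%, and Kcne1-201 led in replicate 2, with 71.6%. The coding sequence of Kcnip2-209 has 813 bases and that of Kcnip2-202 has 759, and they differ by 1 stretch of 54 bases. For Kcnd3 the tables had the same leader, Kcnd3-202, at 78.4% ± 4.82 and 76.7% ± 5.91, and its coding sequence lacks 57 bases that Kcnd3-201 holds. Kcnd3-201, chosen after its value was seen, held 4.11% and 19.1% in replicates 1 and 2 of the first table and 10.2% and 21.6% of the second. These stretches are the only coding differences between the transcripts of each pair, so they carry the distinction between the products. They are printed from the GENCODE M21 transcripts, with the stretch in capitals and 9 shared bases on each side in lower case.
Kcnip2-209 (chr19:45796279-45796332, minus strand): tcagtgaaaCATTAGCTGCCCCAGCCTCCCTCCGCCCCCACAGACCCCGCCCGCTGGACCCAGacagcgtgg
Kcnd3-201 (chr3:105666962-105667018, plus strand): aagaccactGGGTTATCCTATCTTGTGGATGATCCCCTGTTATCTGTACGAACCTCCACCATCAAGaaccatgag

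The libraries were compared over the 26 members with a mean of at least 1 TPM. TPM is a share of all RNA, and it was lower in replicate 2 for 20 of the 26 members and for 9184 of all 12189 genes so filtered, so log2 ratios of replicate 2 over replicate 1 were taken from counts scaled by TMM. Of the 26, 5 reached 1 TPM in 1 library only (Kcnj14, Kcnk2, Kcnt2, Kcnk6 and Kcnab2), so a difference between the libraries bears on whether they were compared at all. The median ratio was -0.04 for the members and -0.02 for all genes. At least 2-fold higher in replicate 2 was 1 member, Kcnj14, where 0.525% of all genes were, and at least 2-fold lower was 1 member, Kcne1, where 1.13% were. Either way that is 2 of 26 members, against 1.66% of all genes. Kcnj14 was below 1 TPM in replicate 1 and passed the filter only through replicate 2, where it was higher, so its call rests in part on that selection. By a two-sided exact binomial test on the counts with Benjamini-Hochberg adjustment, which compares these libraries and not conditions, 11 of 26 members (42.3%) differed beyond counting error. The share over all genes was 26.7%. Of the 11, 3 were higher in replicate 2, where 10.7% of all genes were, and 8 were lower, where 16% were.

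Kcnj14 had 54 counts in replicate 1 and 161 in replicate 2, a log2 ratio of 1.67 (95% interval 1.26 to 2.19, exact binomial adjusted p = 1.18e-14). Kcnj2, a resting-current pore, had 1360 and 1912 counts and a ratio of 0.63 (0.53 to 0.73, exact binomial adjusted p = 2.16e-33). Kcnd3 was also higher, with 668 and 732 counts and a ratio of 0.27. These 3 genes were higher in replicate 2 by each of 4 scalings. On the lower side, Kcne1 had a ratio of -1.36 (95% interval -1.95 to -0.88, exact binomial adjusted p = 2.35e-07). Kcna5 had 768 and 422 counts and a ratio of -0.72 (-0.90 to -0.55, exact binomial adjusted p = 7.31e-16). Kcnk6, Kcnd2, Kcnn2, Kcnip2 and Kcng2 had ratios of -0.51, -0.35, -0.30, -0.29 and -0.13, and Kcnk6 passed the filter only through replicate 1, where it was higher. Kcnk3 had a ratio of -0.06, and 0.04 when scaled by the spike-ins. The transient outward genes thus went both ways, with Kcnd2 and Kcnip2 lower and Kcnd3 higher.

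**Figure D4:**
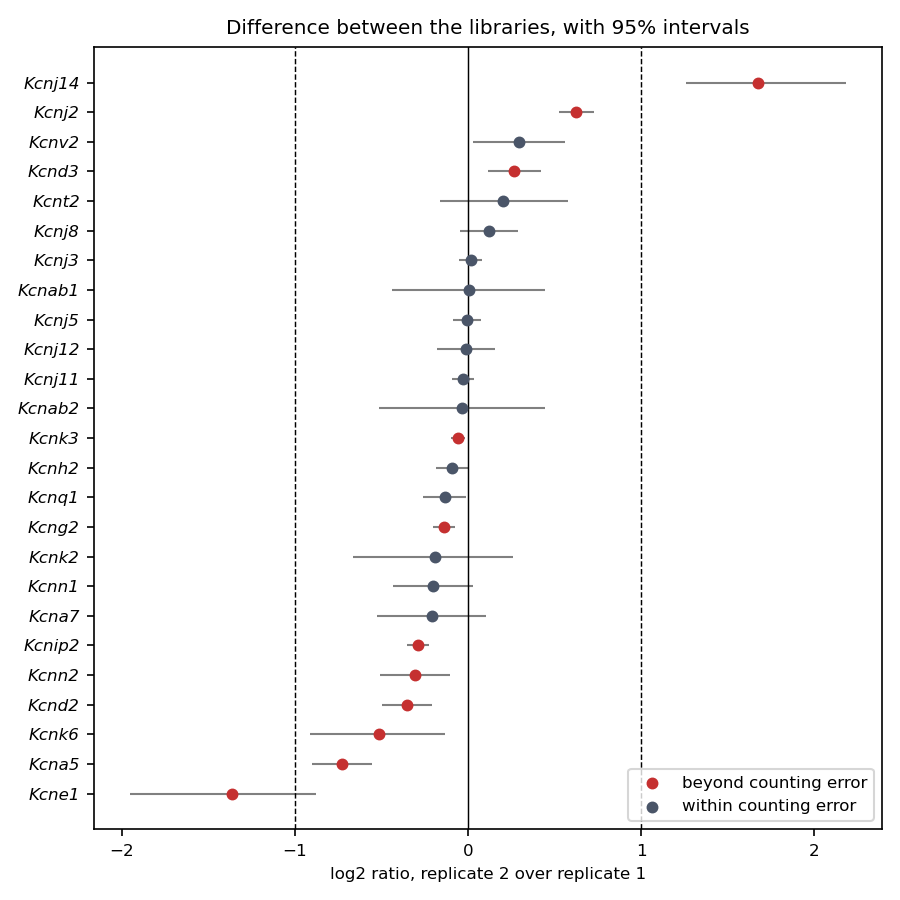
Log2 ratio of replicate 2 over replicate 1 for members with a mean of at least 1 TPM (1 member not shown), with 95% exact binomial intervals that cover counting error only. Red points differ beyond counting error after Benjamini-Hochberg adjustment over 12189 genes, and dashed lines mark 2-fold. Kcnj14 at 1.67 and Kcne1 at -1.36 lie outside the 2-fold lines.

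Markers of atrial muscle also differed between the libraries. All 7 atrial markers (Nppa, Myl7, Myl4, Sln, Bmp10, Dkk3 and Fgf12) were at 1 TPM or more in both libraries and had ratios below 0, with a median of -0.44 and sums of 1395 and 828 TPM. None was at 0. Bmp10 differed most among them, at 18.5 and 1.55 TPM. Kcna5 and Kcne1 were lower in the same library as these markers, and were among the 8 members lower there beyond counting error. Ratios below 0 were found for 18 of the 26 members (69.2%) and for 54.5% of all genes. The acetylcholine-opened pores Kcnj3 and Kcnj5, known for atrial and nodal muscle, had ratios of 0.02 and -0.01. White adipocyte markers were lower in 4 of the 4 with a mean of at least 1 TPM, with sums of 32.2 and 6.22 TPM. Macrophage markers were lower in 4 of 5, with sums of 52.4 and 35.2 TPM. The 5 cardiomyocyte markers also had ratios below 0, with a median of -0.23, from -0.28 for Tnni3 to -0.02 for Tnnt2. All 5 differed beyond counting error, where 26.7% of all genes did, but at high counts, such as 123639 and 110873 for Tnnt2. Scaling by the spike-ins raised such ratios by 0.09, which exceeds the size of the Tnnt2 ratio and of the Actc1 ratio of -0.07. The 3 ventricular markers had a median of 0.02, 5 endothelial markers one of 0.12 and 5 fibroblast markers one of 0.08. Each of these lists held 1 lower marker, Myl3 at -0.20, Tie1 at -0.15 and Col1a1 at -0.56, and the others were higher. In the same order, 2 of 3, 4 of 5 and 4 of 5 differed beyond counting error. Of 7 conduction and pacemaker markers 3 reached 1 TPM in both libraries, and of 5 T cell and 5 skeletal muscle markers 0 did. The part of these markers in the member ratios was not tested.

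On the chromosomes, 10 pairs of members were adjacent protein-coding genes. In 3 of them 1 member reached 1 TPM in both libraries and the other did not, and in the remaining pairs neither did. With 22.3% of members at that level, little can be read from these counts. On chromosome 11 Kcnj16, a partner of other inward rectifiers, was at 0.01 TPM in both libraries, 38195 bases from Kcnj2. On chromosome 9 Kcnj1, a kidney inward rectifier, was at 0 and 0.01 TPM beside Kcnj5, with 28142 bases between them. On chromosome 6 Kcna5 was followed by Kcna1, at 0.91 and 0.84 TPM, and Kcna6, at 0.28 and 0.25. Exon bases were shared with another gene by 12 of the 26 members with a mean of at least 1 TPM, on the opposite strand in 11 and on the same strand in 1 (Kcnab2). The overlapping genes were at 3.78 TPM or less. Kcnj13 had 0 counts in both libraries although 623 of its exon bases lie opposite Gigyf2, which stood at 16.5 and 16.7 TPM.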

How the data were processed

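Heart total RNA of 2 libraries was analysed from the tables the authors deposited. The gene table holds expected counts and TPM as deposited, made from transcriptome alignments to mm10 with the GENCODE M21 annotation, per the deposited file list. A first transcript table comes from the same alignments, and a second, with estimated counts and TPM as deposited, was made from the reads directly. Tool names are not given in the sources used here. Spike-ins and entries without an annotated gene, 0.500% and 0.444% of counts in replicates 1 and 2, were left out of library sizes.

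Expected counts were rounded for TMM scaling in edgeR 4.0.16 (R 4.3.3), with log2 ratios at a prior count of 2. DESeq2 1.42.0 gave an alternative scaling. Two-sided exact binomial tests (SciPy 1.17.1) covered genes whose mean TPM was 1 or more, with Benjamini-Hochberg adjustment at 0.05 over all of them. Intervals are exact at 95%, a count of 0 allows 3 counts, and both cover counting error only. Some genes and a sequence are not reported here. The ratio, the binomial test and the 2-fold rule were run on simulated counts. Those counts held counting error only, so they do not cover the further spread between real libraries. The second table was summed per gene. Named genes were members with a mean of at least 1 TPM, members at least 2-fold apart, those nearest the threshold, known cardiac current genes, all partner genes and leading transcripts. All other members named (such as Kcna6, Kcnc1, Kcne3, Kcne4, Kcnj1, Kcnj4, Kcnj13, Kcnj15, Kcnj16, Kcnk1, Kcnk9, Kcnn3 and Kcnq5) and further transcripts were picked with their values in view. Marker lists covered cardiomyocyte, atrial, ventricular, pacemaker, endothelial, pericyte, smooth muscle, fibroblast, macrophage, T cell, neural, white adipocyte and skeletal muscle cells. The members and lists were chosen with earlier results of these data known.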

Additional observations from a re-analysis of the deposited data

How the results depend on the processing

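The detected members numbered between 18 and 31 over thresholds of 2 and 0.5 TPM, 26 in the second table and 24 in either library alone, beside 21. With counts in place of TPM the members held 0.182% of nuclear protein-coding reads, not 0.109%, and 0.0952% of TPM in the second table. Counts also moved the shares of each role, to 31.9% for inward rectifiers, 24.3% for tandem-pore, 20.6% for voltage-gated, 10.4% for electrically silent, 10.3% for accessory and 2.47% for calcium- or sodium-activated members. The second table moved tandem-pore members to 23.5%, silent members to 12.8% and calcium- or sodium-activated members to 3.097%. Without the filter on TPM, 12 of 79 members were 2-fold apart rather than 2 of 26. The members so added held between 2 and 145 counts in total over both libraries. The share over all genes without the filter was not taken, so nothing about the members is read from that count. With a filter at a mean of 1 TPM, the 4 scalings, the lower prior count and the second table each gave 2 members. The median ratio was -0.17 from TPM + 1, 0.05 with spike-in scaling and 0.04 without the filter. Of the 11 members beyond counting error, 10 kept their sign by all 4 scalings and 11 in the second table. The second table raised 18 of the 20 highest members, by at most 1.29-fold, and 14 of the 20 stayed within their SD. The members as a set did not rise relative to other nuclear protein-coding genes, as their share of TPM was lower there (0.0952% against 0.109%). The number of all genes raised was not taken. No paired analysis was possible because the libraries form 1 group. With 2 libraries, the SD rests on 1 difference, and leaving out either leaves no spread.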

Other observations

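Members below 1 TPM included further differences between the libraries. Kcnk1, a tandem-pore member, had 10 counts in replicate 1 and 70 in replicate 2, a log2 ratio of 2.71 (95% interval 1.98 to 4.07). Kcnq5, a relative of Kcnq1, had 110 and 35 counts and a ratio of -1.47 (-2.11 to -0.95). Kcnc1 had 43 and 94 counts and a ratio of 1.23 (0.73 to 1.82). These 3 genes were chosen after their values were seen, and no adjusted p is given for them.

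The 5 Kcn symbols without a protein-coding transcript were antisense genes. Kcnq1ot1, the long antisense RNA of the imprinted Kcnq1 region, had 503 and 574 counts over its long transcript, or 0.18 and 0.2 TPM. It shares 121 exon bases with Kcnq1 on the opposite strand. Kcnd3os had 12 and 8 counts, and Kcnab3os, Kcnmb4os1 and Kcnmb4os2 had 0 in both libraries.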
